A study of Homo sapiens with 7 samples.

Results

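The plasminogen activator system was described here in 6 genes: PLAU and PLAT, which encode the plasminogen activators, PLAUR, which encodes the urokinase receptor, PLG, which encodes plasminogen, and SERPINE2 and SERPINB2, which encode inhibitors of the activators. The genes were chosen by name, PLAUR and SERPINE2 being among the aneuploidy markers of the study, and every non-control spot that carried one of the 6 names was taken, out of 36337 gene names on the array. They were represented by 8 probes and 26 spots. The cells were HCT116, a human colon carcinoma line, in a derivative that carries H2B-GFP, a fluorescent histone fusion, and is labelled diploid. 4 biological replicates received bafilomycin A1, an inhibitor of the vacuolar proton pump, at 10 nM for 30 h, and each was hybridized to 1 single-colour (Cy3) Agilent array after labelling of 100 ng RNA. The 3 untreated samples of the same line were not analysed here, so the data describe the levels of these genes in treated cells and their error, and no fold change between treated and untreated cells was computed. As a model this is a single tumour line under a single dose and time.

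Urokinase and tissue plasminogen activator are serine proteases that cut plasminogen, a zymogen made mainly by the liver, into plasmin, which degrades fibrin and matrix proteins. The urokinase receptor is a protein anchored in the plasma membrane by a lipid that holds urokinase at the cell surface, and serpins inactivate the activators by forming covalent complexes with them. In colorectal tumours the receptor and urokinase are known for their abundance at the invasive front.

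The probes that measured these transcripts are 60 bases long, and their positions are those of GRCh37 as given with the array. For 4 of the 8 probes the sequence is shown, because the largest spreads between replicates, those of PLAUR, SERPINE2 and a PLAU probe, each rest on 1 of these sequences printed once per array, and the SERPINB2 probe stands for a gene at background. G and C are in capitals, since GC content is set beside the results, and the sequences are written 5′ to 3′ as given with the array.
PLAUR: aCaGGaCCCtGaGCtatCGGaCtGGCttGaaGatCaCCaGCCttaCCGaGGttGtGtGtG
SERPINE2: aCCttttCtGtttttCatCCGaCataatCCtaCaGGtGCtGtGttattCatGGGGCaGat
PLAU: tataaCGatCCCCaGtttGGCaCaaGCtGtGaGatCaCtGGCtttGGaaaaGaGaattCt
SERPINB2: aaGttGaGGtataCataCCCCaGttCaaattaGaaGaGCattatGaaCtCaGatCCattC
The PLAUR probe lies on the minus strand at chr19:44169498-44169557, has 55.0% GC and is annotated to 3 RefSeq transcripts of the gene. The SERPINE2 probe, of 41.7% GC, is also annotated to 3 RefSeq transcripts, and its ends lie 1699 bases apart at chr2:224840597-224842295 on the minus strand, so that it joins separate parts of the gene. The PLAU probe shown, A_33_P3306146, lies at chr10:75674614-75674673 on the plus strand and has 43.3% GC, and the SERPINB2 probe, A_24_P245379, lies at chr18:61570202-61570261 on the plus strand and has 36.7% GC. The other PLAU probe, A_23_P24104 (chr10:75677050-75677109, plus strand), has 45.0% GC and is printed as 10 spots on every array. PLG has 1 probe, at chr6:161174211-161174270, and SERPINB2 has a further probe, A_33_P3353525, at chr18:61538974-61539033, which is annotated to an Ensembl transcript and to 0 RefSeq transcripts. Each of these probes is annotated to transcripts of its gene and so to exons. No annotation of coding and untranslated parts in this build was used.

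The share of spots well above background lay between 55.6% and 60.4%, 0 spots were saturated, and with 1 slide and 1 scan for the whole set no batch could be formed. The scanner software marked the local background as outlying at 1916 spots on replicate 3, against 118 to 459 on the others. Of 8 markers of colon epithelium, 7 were well above background on all 4 arrays, VIL1 being the exception, with a summed signal of 531306 to 636130 intensity units. Of 5 fibroblast markers 1 (COL1A1) was so, of 3 endothelial markers 2 (VWF and CDH5), of 4 hepatocyte markers 1 (SERPINA1), and of 5 leukocyte markers all 5. In the same order, the summed signals were 418 to 689, 313 to 464, 709 to 1074 and 3838 to 5369 intensity units. Of all gene names on the array, 54.2% passed the same rule. The sums are of different probes over lists of unlike length and are not compared between cell types.

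In the treated cells both activators, the urokinase receptor and SERPINE2 were measured on every array. Plasminogen and SERPINB2 were well above background on 0 of the 4 arrays. Thus 4 of the 6 genes had at least 1 probe well above background on all 4 arrays, the condition for calling a gene detected, against 54.2% of all gene names on the array. By probe, 5 of 8 were detected, against 50.7% of all probes. Because the RNA of whole cultures was measured, fewer expressing cells and less RNA per cell cannot be told apart. Levels are given as the log2 of the background-subtracted signal minus the median of the array, and they are compared between arrays, never between probes, whose brightness depends on their own sequence.

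PLAU, the gene of urokinase, gave a bright and steady signal at its 10-spot probe. The mean background-subtracted signal of A_23_P24104 was 11563, 12192, 10832 and 9428 intensity units on replicates 1 to 4. Relative to the array median this was 7.23, 7.44, 7.27 and 7.22, or 7.29 ± 0.10 (SD, n = 4). Replicate 2 was the highest, and the arrays lay within 1.17-fold of each other. Of all detected probes, 89.2% spanned more than this. At the same 10 positions, replicate 2 was the highest array in 10 of 10 spots. Replicate 4 was the lowest in the mean and replicate 1 was the lowest in 10 of 10 single spots, because 2 of the brightest positions were marked as outliers on replicates 3 and 4 alone and left the mean there. Without replicate 2 the remaining arrays spanned 1.04-fold.

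The single-spot PLAU probe did not follow the 10-spot probe. Its signal was 793, 1019, 449 and 537 intensity units on replicates 1 to 4. The levels were 3.36, 3.86, 2.68 and 3.08, or 3.24 ± 0.50 (SD, n = 4), highest on replicate 2 and lowest on replicate 3, a span of 2.27-fold. Of all detected probes, 3.1% spanned more. Replicate 3 lay 0.76 below the mean of the other arrays on the log2 scale by this probe and 0.03 below it by the 10-spot probe. The span was 1.61-fold without replicate 2 and 1.72-fold without replicate 3. Both probes are annotated to the same 2 RefSeq transcripts. The median over both probes, the summary used in the study, gave a gene level of 5.27 ± 0.29 (SD, n = 4) with a span of 1.60-fold, and thus a spread that neither probe had.

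PLAT, the gene of tissue plasminogen activator, was measured with 10 spots per array, all well above background, by a probe of 35% GC on the minus strand at chr8:42032812-42032871. The mean signal was 7336, 6985, 8752 and 5712 intensity units on replicates 1 to 4. The levels were 6.57, 6.64, 6.96 and 6.49, or 6.66 ± 0.21 (SD, n = 4). Replicate 3 was the highest, and this held in 10 of 10 spot positions, while the lowest was replicate 4 in 8 and replicate 1 in 2 positions. The span was 1.38-fold over 4 arrays and 1.11-fold without replicate 3. Spots of the same array differed mainly by position: the SD between the 10 spots was 0.23 to 0.29 on the log2 scale on single arrays, and 0.03 to 0.06 after the mean of each position over the arrays was taken off. For PLAU the corresponding SDs were 0.09 to 0.21 over the spots used and 0.02 to 0.04 over all 10 spots. Spots share an array and its RNA and are not replicates of the treatment.

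**Figure D1:**
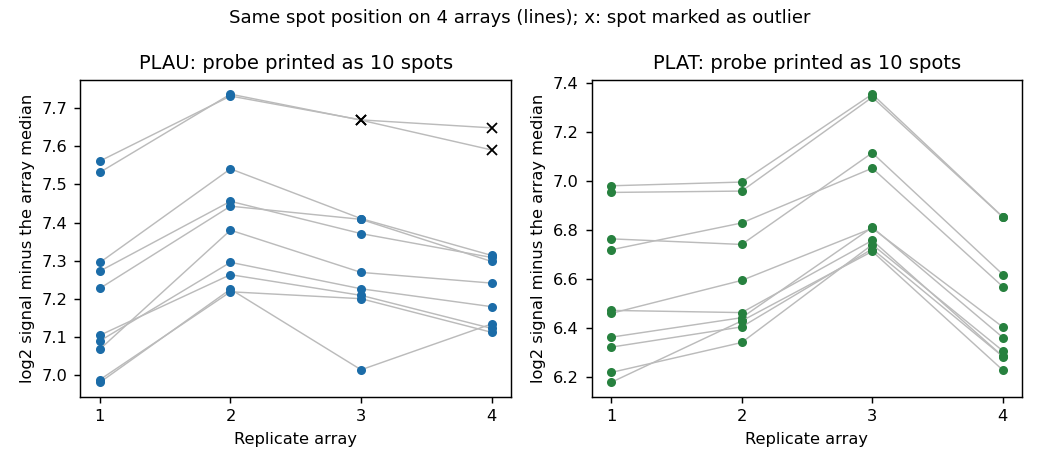
The log2 signal minus the array median is plotted for each of the 10 spots of the PLAU probe A_23_P24104 and of the PLAT probe on the 4 replicate arrays (x axis), with lines joining the same spot position and crosses for spots marked as outliers. Replicate 2 was the highest array in 10 of 10 PLAU positions and replicate 3 in 10 of 10 PLAT positions.

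PLAUR, the gene of the urokinase receptor and one of the aneuploidy markers, varied more between the arrays than most detected probes did. Its probe is 1 spot per array, so differences between cultures and errors of labelling, array or spot cannot be told apart. Its signal was 4808, 5402, 2878 and 3492 intensity units on replicates 1 to 4. The levels were 5.96, 6.27, 5.36 and 5.78, or 5.84 ± 0.38 (SD, n = 4). Replicate 2 was the highest and replicate 3 the lowest, 1.88-fold apart, and 8.28% of the detected probes spanned more. Replicate 3 was 1.56-fold below the mean of the other arrays. The span of 0.91 on the log2 scale became 0.48 without replicate 3, just under 1.4-fold, and 0.60 without replicate 2. Of the detected probes, 4.64% lay further below the other arrays on replicate 3.

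SERPINE2, also an aneuploidy marker, encodes protease nexin-1, which inhibits thrombin, urokinase and plasmin. Its signal was 1603, 1792, 2611 and 1613 intensity units on replicates 1 to 4. The levels were 4.37, 4.67, 5.22 and 4.67, or 4.73 ± 0.35 (SD, n = 4). Replicate 3 was the highest, 1.56-fold above the mean of the other arrays, so the array on which the receptor was lowest was the one on which this inhibitor was highest. The span was 1.79-fold, which fell to 1.23-fold without replicate 3 and to 1.46-fold without replicate 1. Of the detected probes, 5.14% lay further above the other arrays on replicate 3.

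**Figure D2:**
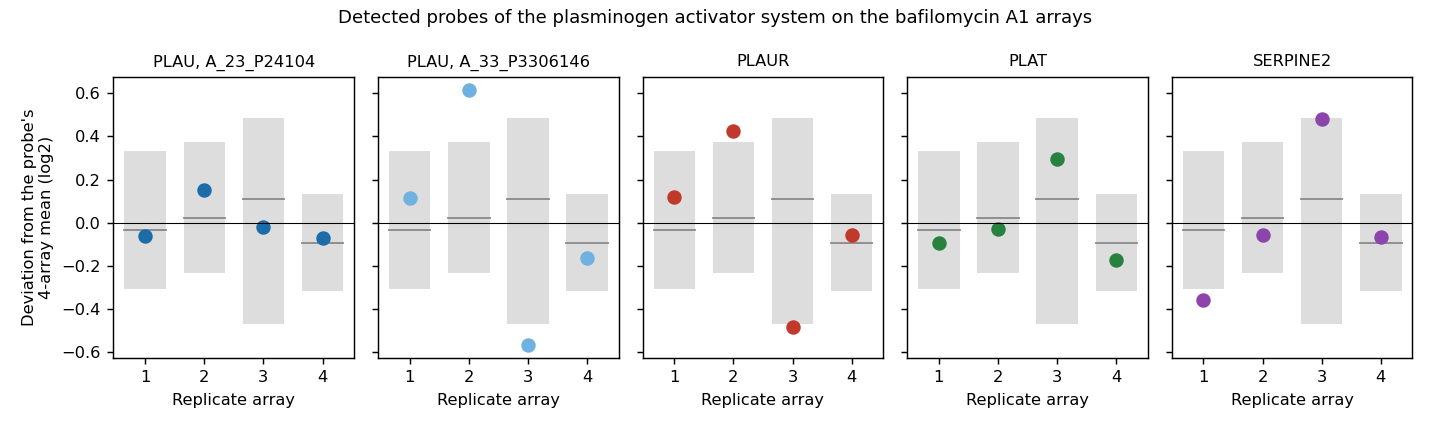
Each panel shows 1 detected probe, with its deviation from its own 4-array mean (log2) on the y axis and the replicate array on the x axis. Grey bars span the 5th to 95th percentile of all 25661 detected probes on that array and grey lines their median. On replicate 3, PLAUR and the PLAU probe A_33_P3306146 lay at -0.48 and -0.57, and PLAT and SERPINE2 at 0.30 and 0.48.

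The study takes 1.4-fold as its limit for a changed gene, which it applies to ratios between cell lines, each summarized by a median. The span from the lowest to the highest of 4 single arrays is another measure and does not give the error of such a ratio. Between the replicates of the treated arm, 3 of the 5 detected probes spanned more than 1.4-fold, against 43.7% of all 25661 detected probes. They were PLAUR, SERPINE2 and A_33_P3306146 of PLAU. Without replicate 3 the count was 1 of 5 (A_33_P3306146), against 15.9% of all detected probes. The median SD over all detected probes was 0.20. Replicate 3 was the highest array for 2 of the 5 probes and the lowest for 2, where it was the highest for 50.6% and the lowest for 23.4% of all detected probes. By Dixon's ratio for a single array apart from the rest, 0 of the 5 probes were marked at the 95% level, against 7.33% of all detected probes. With 4 samples of 1 condition there was no contrast to test, and counts over 5 probes set nothing apart from the shares over all probes.

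GC content of the probes moved with the deviation of replicate 3. Over all detected probes, the median of replicate 3 minus the mean of the other arrays was 0.33 in 7094 probes with 35% to 38.3% GC and -0.10 in 3724 probes with 55.0% to 58.3% GC. Among probes with the same number of G and C bases, the median was 0.36 for PLAT, whose own deviation was 0.39, and 0.19 for SERPINE2, whose own deviation was 0.64. For PLAUR it was -0.09 beside a deviation of -0.65, and for A_33_P3306146 it was 0.16 beside a deviation of -0.76. PLAT was thus close to the median of probes of its GC content, and PLAUR stayed within the range from the 5th to the 95th percentile of its own (-0.83 to 0.42), whereas SERPINE2 lay just above that range (-0.50 to 0.63) and A_33_P3306146 below it (-0.60 to 0.58). The part of GC content in these results was not tested.

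**Figure D3:**
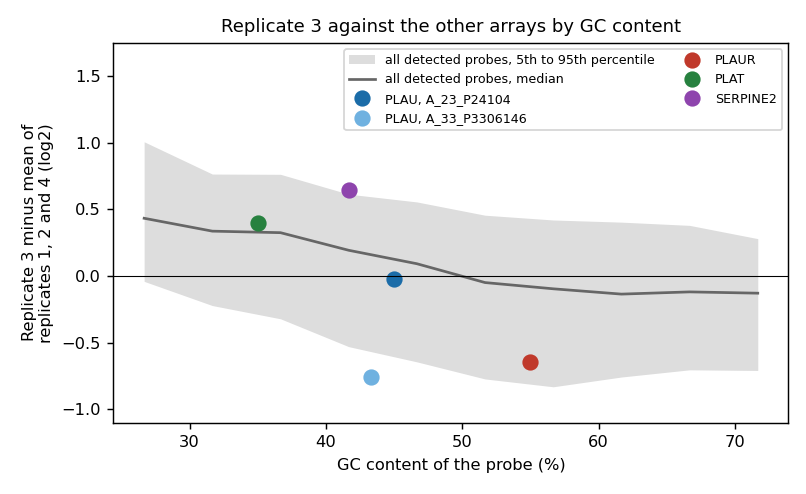
Replicate 3 minus the mean of replicates 1, 2 and 4 (log2, y axis) is plotted against the GC content of the probe in percent (x axis), with coloured points for the 5 detected probes of the system and the median (grey line) and the 5th to 95th percentile (grey area) of all detected probes in bins of GC content. The median falls from 0.33 at 35% to 38.3% GC to -0.10 at 55.0% to 58.3% GC, with PLAUR and the PLAU probe A_33_P3306146 below the line and SERPINE2 above it.

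Replicate 3 was the lowest array for PLAUR and the highest for SERPINE2 also in the settings that recompute the signal, on the same arrays. Of the 4 detected inhibitors among the further pathway genes, replicate 3 was the lowest array for 3 (SERPINF2, SERPINI1 and SERPING1). It was the highest for 1 (A2M). The single-spot probes of PLAUR and SERPINE2 thus do not stand for receptor and inhibitors in general. The other centring and outlier rules shifted both single-spot probes of an array by the same constant. They could not change the gap between the 2 genes. With the processed signal of the scanner software centred on the 75th percentile, replicate 3 lay at -0.71 relative to the other arrays for PLAUR and at 0.55 for SERPINE2. After normexp background correction and quantile normalization the values were -0.87 and 0.40. PLAT stayed above the other arrays, by 0.29 and 0.15. The 10-spot probe of PLAU moved between -0.27 and 0.03, and its highest array was replicate 2 in each setting except for the processed signal, where it was replicate 4.

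**Figure D4:**
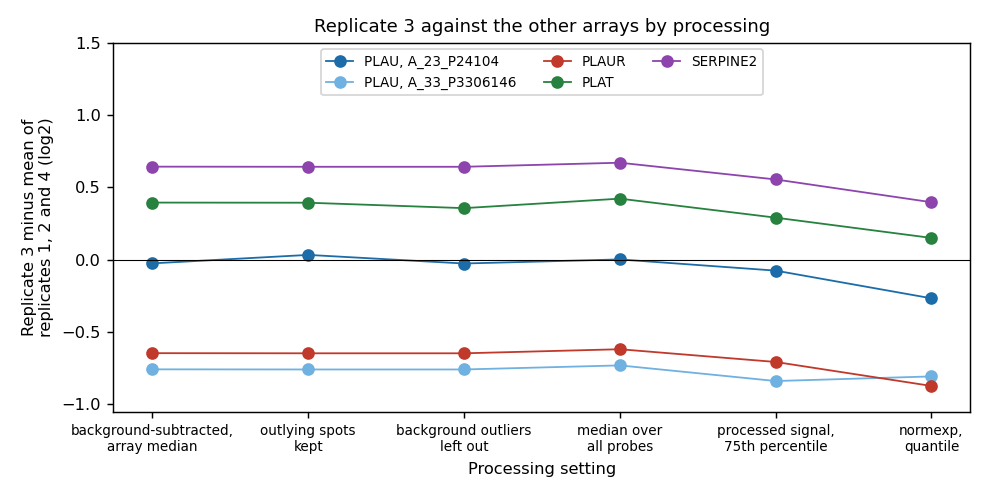
Replicate 3 minus the mean of replicates 1, 2 and 4 (log2, y axis) is plotted for the 5 detected probes under 6 processing settings (x axis). Lines join the values of a probe, which for PLAUR range from -0.62 to -0.87 and for SERPINE2 from 0.40 to 0.67.

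PLG and SERPINB2 were well above background on no array. The PLG probe read 1.77, 2.61, -9.13 and 6.59 intensity units on replicates 1 to 4, while the lowest spot called well above background on these arrays read between 20.8 and 22.3. The software called the PLG spot positive and significant on replicate 4 alone. SERPINB2, the gene of plasminogen activator inhibitor type 2, read -2.30, -6.51, 3.52 and 0.89 with A_24_P245379 and -12.4, -10.1, -11.1 and -6.43 with A_33_P3353525. Values below 0 have no log2, so PLG had a level on 3 arrays and neither SERPINB2 probe on all 4, and no mean or SD is given for either gene. Of the 4 hepatocyte markers, ALB, APOA2 and TTR were well above background on 0 arrays and SERPINA1 on all 4, at a level of 3.57 ± 0.25 (SD, n = 4).

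**Figure D5:**
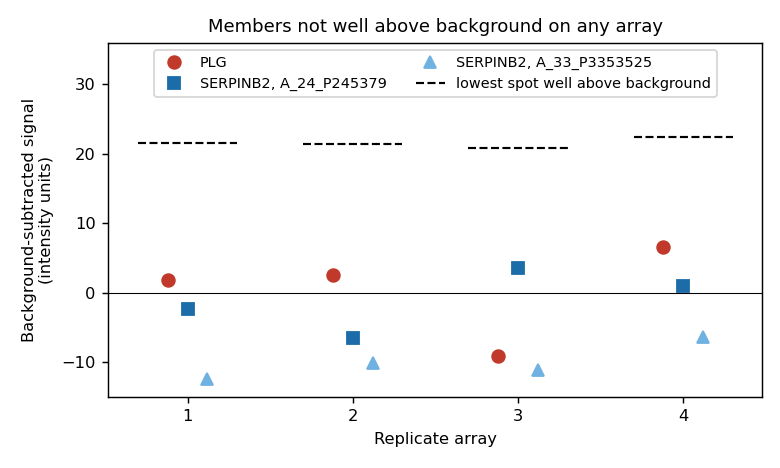
The background-subtracted signal in intensity units (y axis) of the PLG probe and of both SERPINB2 probes is plotted for each replicate array (x axis), with dashed lines at the lowest spot well above background on that array. All 12 values lie between -12.4 and 6.59, below the dashed lines at 20.8 to 22.3.

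Around these genes, 47 further genes of the pathway were looked up by name, all 47 were on the array, and 29 were detected, where 54.2% of all gene names were. The counts by group given next are to be read against the same share, and none is set apart from it by a test. The receptors that bind plasminogen at the cell surface were all detected, namely ENO1, ANXA2, S100A10 and PLGRKT, which the array lists under the older symbol C9orf46. ENO1, a glycolytic enzyme that also binds plasminogen at the surface, had levels of 10.52, 10.62, 9.92 and 10.26 on replicates 1 to 4 and was lowest on replicate 3, while ANXA2, S100A10 and PLGRKT were each highest there. ANXA2 and S100A10, which form a complex that binds plasminogen and tissue plasminogen activator, had SDs of 0.12 and 0.18 (n = 4). All 7 receptors and partners of clearance and cargo transport were detected, among them LRP1, which takes up complexes of activator and serpin, IGF2R and MRC2. Of 9 surface partners of the urokinase receptor, 7 were detected, including the integrin subunits ITGA3, ITGA5, ITGAV, ITGB1 and ITGB5, while ITGB3 and FPR2 were well above background on no array.

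Proteases and inhibitors of the wider pathway were detected in part. Of 5 proteases able to activate urokinase or plasminogen, F12, ST14 and CTSB were detected, with levels of 6.51 ± 0.11, 5.52 ± 0.11 and 4.64 ± 0.10 (SD, n = 4). KLKB1 and HPN were not, being well above background on 3 and on 1 of the 4 arrays. Of 6 inhibitors, SERPINF2, A2M, SERPINI1 and SERPING1 were detected. SERPINA5 was well above background on 3 of the 4 arrays, and CPB2 on none. SERPINF2, the gene of alpha 2-antiplasmin, the main inhibitor of plasmin in blood, had levels of 0.74, 0.67, -0.37 and 0.59, lowest on replicate 3. Of 7 substrates, MMP9 and MMP14 were detected, and FGA, FGB, FGG, HGF and MMP3 stayed at background on all 4 arrays. Of 9 clade B serpins related to SERPINB2, SERPINB5 and SERPINB8 were detected, with levels of 5.16 ± 0.15 and 1.67 ± 0.31 (SD, n = 4), and the other genes of that group were not. Each of the 29 detected genes was taken as the median over its detected probes, whereas the shares set beside them are of single probes. Of these genes, 11 spanned more than 1.4-fold between the arrays, and 4 did so without replicate 3, where 43.7% and 15.9% of all detected probes did. Replicate 3 was the highest array for 14 of the 29 genes and the lowest for 9, where these shares were 50.6% and 23.4% of all detected probes.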

How the data were processed

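RNA from 4 bafilomycin A1 cultures was measured on 1 Agilent array each. The authors deposited the scanner files of Agilent Feature Extraction 10.7.3.1, which give a linear intensity per spot with the local background already taken off, not yet scaled from array to array, and flags per spot. Here spots marked as feature outliers were left out, the spots of a probe were averaged, the background-subtracted signal was log2 transformed, and the median of each array was subtracted. Log2, median subtraction and the median over probes of a gene follow the methods of the study. Leaving out outliers, averaging spots and taking the array median over non-control probes with a positive signal were choices made here. Background outliers were kept, with their removal as an alternative. A probe counted as detected if over 50% of its spots passed the software's flag for a signal well above background on all 4 arrays. The SD and Dixon's ratio were checked on simulated data. The genes named are all 6 members and a list of pathway genes and cell markers. Members and lists were chosen with earlier results of these data known. A RefSeq table of GRCh38.p14 served for older symbols only. Alternatives were the processed signal, normexp with an offset of 50 and quantile normalization, other centring, detection and probe rules, and leaving out each array. Python 3.11.15 with numpy 2.4.6, pandas 2.3.3 and matplotlib 3.10.9, and R 4.3.3 with limma 3.58.1 were used. With 4 arrays, precision is limited by their number.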

Additional observations from a re-analysis of the deposited data

Results flagged for a closer look

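Among 34 values examined, the 5 detected probes of the members and the 29 detected genes of the wider pathway, 2 exceeded the 95% limit of Dixon's ratio, the gap of an extreme array to its neighbour divided by the whole range. Chance exceeds it in about 5% of such sets, and 7.33% of all detected probes on these arrays did. In both genes the extreme array was replicate 3. F12, the gene of coagulation factor XII, had a level of 6.67 there, above a range of 6.45 to 6.48, and a ratio of 0.874. SERPINF2 had a level of -0.37 there, below a range of 0.59 to 0.74, and a ratio of 0.865.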

How the results depend on the processing

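The 4 detected members stayed 4 under the other detection rules, with outlying spots kept and with any array left out. The count of 3 member probes spanning over 1.4-fold became 4 with the array median taken over all probes, where PLAT passed at 1.42-fold, and ranged from 1, without replicate 3, to 3 with 1 array left out. The other settings left it at 3. With 1 array left out, the span between replicates ranged on the log2 scale from 0.32 to 0.68 for PLAU, with the lowest value without replicate 2, from 0.48 to 0.91 for PLAUR, from 0.14 to 0.47 for PLAT and from 0.30 to 0.84 for SERPINE2, each of these with the lowest value without replicate 3. Normexp and quantile normalization moved the span of PLAT from 0.47 to 0.19, and the cause was not tested. The other alternatives moved the 4 gene spans by less than 1 SD. Of the gene levels, 12 values moved by more, each through another scale or centring, and 32 did not. With the array median taken over all probes the level of PLAUR went from 5.84 to 6.92, and the levels of the other 3 genes shifted by the same constant. Removing spots with an outlying background, and the detected count with arrays left out, were chosen after seeing the data. No paired analysis was possible because the untreated samples were not analysed here, and 1 slide and 1 scan gave no block. Signals under the lowest spot well above background, at 20.8 to 22.3 intensity units, limit what can be said of PLG and SERPINB2.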
